A study of Danio rerio with 18 samples.

Results

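Charging, the loading of a tRNA with its amino acid, was compared between bud, when gastrulation has ended, and sphere, a blastula stage before it, in zebrafish embryos. The table of charged fractions held 46 nuclear anticodon families (tRNAs that share an amino acid and an anticodon, with the initiator iMet-CAU kept apart from the elongator Met-CAU) in 6 libraries, 3 from bud embryos (10 hours post fertilization, hpf) and 3 from sphere embryos (4 hpf). The whole series had 18 samples, and the other 12 measured tRNA abundance. All embryos were untreated wild type, of the TLAB strain by the study's methods, and each library came from a pool of whole embryos, so a value is a mean over all their cells. Every family of the table was taken, and all 46 had a value in all 6 libraries. The families covered the 20 standard amino acids, and 13 amino acids had more than 1 family, 39 families in all. The abundance table listed 47 nuclear families. The additional one, SeC-UCA, the selenocysteine tRNA, was not analysed here for charging.

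A tRNA is charged by an aminoacyl-tRNA synthetase, which attaches the amino acid to the terminal adenosine of the CCA end. The synthetases fall into class I and class II by the fold of their catalytic domain, and in animals several of them sit together in a multi-synthetase complex. Charged tRNA is carried to the ribosome, where the anticodon reads the codon, and uncharged tRNA can activate the stress kinase GCN2. tRNAs that accept the same amino acid are called isoacceptors here, the methionine families included, and all isoacceptors of an amino acid are normally charged by a single cytosolic enzyme. The first anticodon base pairs with the third codon base, and a genomic A at that place is usually converted to inosine.

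The assay oxidised the 3′ end of uncharged tRNAs with periodate and removed their last base, while the amino acid protected charged ones. The charged fraction of a family was the share of its reads that kept the full CCA end, given here in percent. The table held no read counts, so the depth behind each value is unknown and no counting interval could be given. The study's methods say that replicates of its tRNA sequencing time points came from different days, but do not say whether this includes the charging libraries. If it does not, p-values measure a spread between libraries that may be technical.

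Most tRNA was charged in every library. The 276 values lay between 76.2%, for Arg-ACG in sphere replicate 3, and 96.7%, for Gln-UUG in bud replicate 2, and 10 of them were under 80%. Over the 6 libraries, 18 family means were above 90% and 8 were below 85%. The uncharged share of the least charged family was 4.19 times that of the most charged one.

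**Figure D1:**
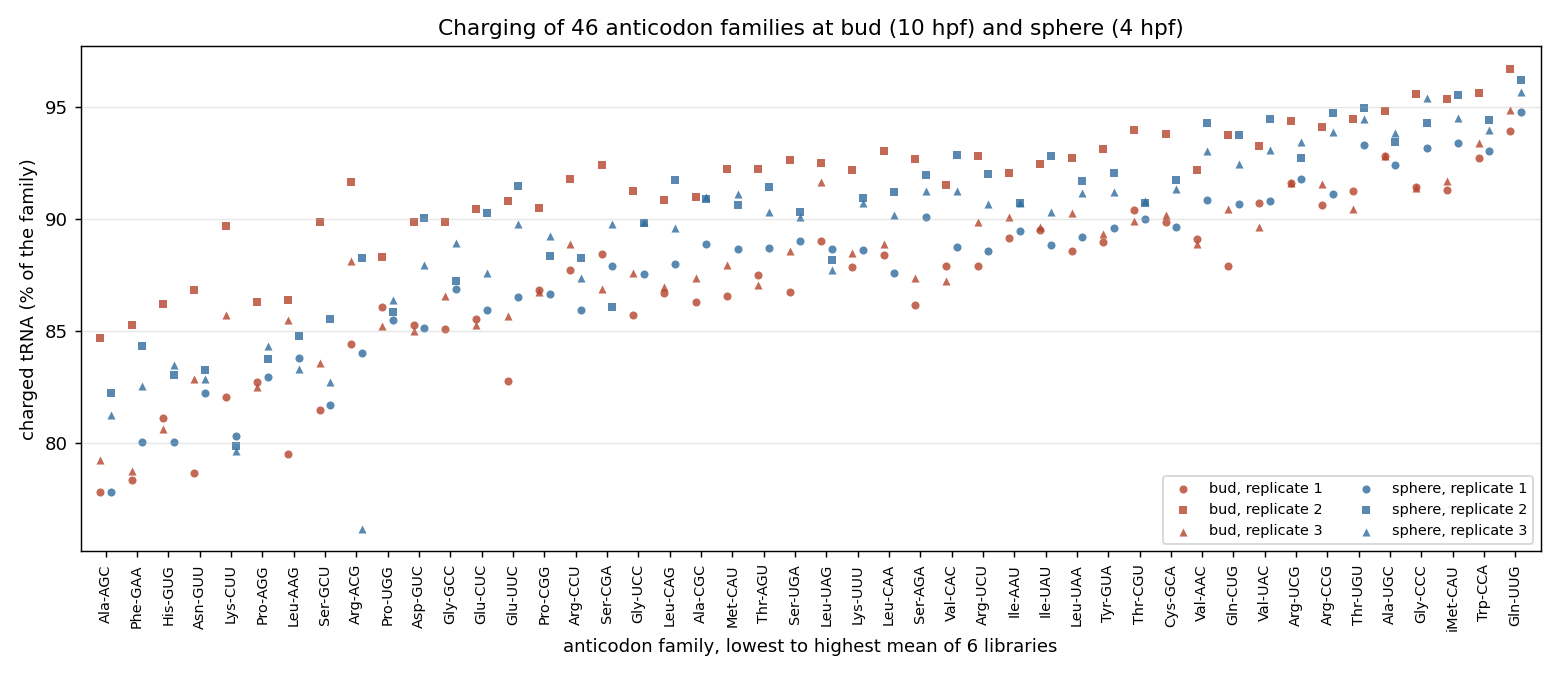
Charged tRNA of each of the 46 families in percent (vertical axis, starting above 0), with families ordered by their mean over 6 libraries. Red symbols are the 3 bud libraries and blue symbols the 3 sphere libraries. Ala-AGC stands at the low end and Gln-UUG at the high end, and the red squares of bud replicate 2 lie above the other bud symbols in all 46 families.

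The libraries differed as wholes more than the stages did. The mean over families was 87.0%, 91.6% and 87.9% in bud replicates 1, 2 and 3, against 87.8%, 90.1% and 89.3% in sphere replicates 1, 2 and 3. Bud replicate 2 exceeded both other bud libraries in 46 of 46 families, and it was the highest of all 6 libraries in 35. Bud libraries averaged 88.8% ± 2.46 and sphere libraries 89.0% ± 1.15 (SD, n = 3 each), a difference of -0.22 percentage points that did not exceed the spread between libraries (two-sided exact permutation test, p = 1, where 0.1 is the smallest p that 3 against 3 libraries allow). Without bud replicate 2 the difference was -1.62 points, and without bud replicate 1 it was 0.70 points, so single libraries set its sign. Weighting each family by its share of nuclear tRNA counts gave 86.4%, 91.2% and 87.3% in the bud libraries, against 87.3%, 89.8% and 88.7% in the sphere libraries. The stages overlapped on this scale too.

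The least charged families were Ala-AGC, Phe-GAA, His-GUG, Asn-GUU, Lys-CUU and Pro-AGG, all of amino acids with class II synthetases. Class II was not particular to this end, because Gly-CCC, Ala-UGC and Thr-UGU, among the most charged families, also belong to it. Ala-AGC and Ala-UGC even accept the same amino acid. Ala-AGC was charged to 77.9%, 84.7% and 79.3% in the bud libraries, against 77.8%, 82.2% and 81.2% in the sphere libraries. Phe-GAA, the single phenylalanine family, had 78.4%, 85.3% and 78.8% in bud libraries, against 80.1%, 84.3% and 82.6% in sphere libraries. His-GUG had 81.1%, 86.2% and 80.6% in bud libraries, against 80.1%, 83.0% and 83.5% in sphere libraries. In these families bud replicate 2 was the highest library and the stages overlapped. Asn-GUU had 78.7%, 86.8% and 82.9% in bud libraries, against 82.2%, 83.3% and 82.9% in sphere libraries. Pro-AGG had 82.8%, 86.3% and 82.5% in bud libraries, against 83.0%, 83.8% and 84.3% in sphere libraries. Both again overlapped between stages, while Lys-CUU did not.

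At the other end stood Gln-UUG, Trp-CCA, iMet-CAU (the initiator methionine tRNA), Gly-CCC, Ala-UGC and Thr-UGU. Gln-UUG had 93.9%, 96.7% and 94.9% in bud libraries, against 94.8%, 96.2% and 95.7% in sphere libraries, and it was the most charged family in all 6. Trp-CCA had 92.7%, 95.6% and 93.4% in bud libraries, against 93.0%, 94.4% and 94.0% in sphere libraries. iMet-CAU had 91.3%, 95.3% and 91.7% in bud libraries, against 93.4%, 95.5% and 94.5% in sphere libraries. These families overlapped between the stages. Gly-CCC had 91.4%, 95.6% and 91.4% in bud libraries, against 93.2%, 94.3% and 95.4% in sphere libraries. Ala-UGC had 92.8%, 94.8% and 92.8% in bud libraries, against 92.4%, 93.4% and 93.8% in sphere libraries, and Thr-UGU had 91.2%, 94.5% and 90.5%, against 93.3%, 94.96% and 94.5%. Ala-UGC had the narrowest range of all families over the 6 libraries, 2.41 points, followed by Gln-UUG with 2.75 and Arg-UCG with 2.79. The widest ranges were those of Arg-ACG with 15.5 points, Lys-CUU with 10.0 and Glu-UUC with 8.71. These ranges include shifts of whole libraries. With each library's mean over families removed, the narrowest were Tyr-GUA with 0.53 points, Lys-UUU with 0.84 and Cys-GCA with 1.21, while Ala-UGC had 2.61. The widest were then Arg-ACG with 13.3 points, Lys-CUU with 8.23 and Leu-UAG with 5.67.

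To place each family against the typical family of its own library, the library mean was removed and limma was run on what remained (two-sided, Benjamini-Hochberg over 46 families, called at an adjusted p of at most 0.05). By this test 22 of 46 families lay above their library mean (47.8%) and 15 below it (32.6%). With the library median in place of the mean, 15 lay above and 18 below, so the split depends on the centre chosen. The lowest was Ala-AGC at -8.41 points (95% interval -9.36 to -7.46), below the mean in 6 of 6 libraries. Phe-GAA followed at -7.36, His-GUG at -6.51, Asn-GUU at -6.14, Lys-CUU at -6.04 and Pro-AGG at -5.16. The highest was Gln-UUG at 6.42 points (5.66 to 7.19), above the mean in 6 of 6 libraries. Trp-CCA followed at 4.92, iMet-CAU at 4.68, Gly-CCC at 4.60, Ala-UGC at 4.42 and Thr-UGU at 4.21. For these 12 families limma's adjusted p ranged from 1.28e-06 to 1.50e-05, and each remained called without any 1 library.

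The families between these ends filled a continuous range. Leu-AAG (mean 83.9%), Ser-GCU (84.2%), Arg-ACG (85.5%), Pro-UGG (86.2%), Asp-GUC (87.2%), Gly-GCC (87.4%), Glu-CUC (87.5%), Pro-CGG (88.1%) and Arg-CCU (88.3%) were called below their library mean. Of these, Arg-CCU lay above the mean in 3 libraries and below it in 3, and its call was lost whichever library was left out. Pro-CGG lost its call in 4 of the 6 fits that left out a library, and Arg-ACG in 3. Glu-UUC (87.8%), Ser-CGA (88.6%), Gly-UCC (88.6%), Leu-CAG (89.0%), Ala-CGC (89.2%), Met-CAU (89.5%, the elongator methionine tRNA), Thr-AGU (89.5%), Ser-UGA (89.6%) and Leu-UAG (89.6%) were not called on either side. Lys-UUU (89.8%), Leu-CAA, Ser-AGA, Val-CAC, Arg-UCU, Ile-AAU, Ile-UAU, Leu-UAA, Tyr-GUA, Thr-CGU, Cys-GCA, Val-AAC, Gln-CUG, Val-UAC, Arg-UCG and Arg-CCG (92.7%) were called above it, of which Val-CAC lost its call in 4 of those fits and Ser-AGA in 1. The other 32 of the 37 called families remained called in all 6 fits. Neighbours in this order could differ by less than their spread over the libraries, such as Arg-UCG at 92.6% ± 1.14 and Arg-CCG at 92.7% ± 1.76 (SD, n = 6).

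The order from least to most charged repeated between libraries. Spearman's rho over the 46 families, which are not independent replicates, averaged 0.89 over the 15 pairs of libraries and ranged from 0.79 to 0.96. It averaged 0.93 among bud libraries, 0.93 among sphere libraries and 0.86 between a bud and a sphere library. The last average depended on the sphere library. Sphere replicate 1 had 0.91, 0.92 and 0.89 with bud replicates 1, 2 and 3, and 0.91 and 0.96 with sphere replicates 2 and 3. Sphere replicates 2 and 3 had 0.79 to 0.88 with the bud libraries. Kendall's W, which is 1 when all libraries give the same order, was 0.91 over the 6 libraries. Ala-AGC, Phe-GAA, His-GUG, Asn-GUU, Pro-AGG, Leu-AAG and Ser-GCU were among the 10 least charged families in every library. Gln-UUG, Trp-CCA, iMet-CAU, Gly-CCC, Ala-UGC, Thr-UGU and Arg-CCG were among the 10 most charged in every library. The median family moved over 9 ranks, and Leu-UAG moved most, between ranks 12 and 42. Between the stage means, Lys-CUU held rank 8 at bud and rank 1 at sphere, and Leu-UAG held rank 35 at bud and rank 17 at sphere.

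Ordered by the mean of their families, the amino acids ran from phenylalanine (81.6%), histidine (82.4%) and asparagine (82.8%) through proline (86.0%) and lysine (86.4%) to methionine (91.6%), glutamine (93.4%) and tryptophan (93.9%). Kendall's W of this order over the 6 libraries was 0.92. Of the variation in all 276 values (the sum of squares), 41.7% lay between amino acids and 33.4% between families of one amino acid. Only 13 of the 20 amino acids had more than 1 family and could add to the second share. Any grouping of 46 families into 20 sets places part of the variation between the sets. The shares were not set against that part, so they do not rank amino acid above family. Libraries within a stage took 14.9%, the stage itself 0.077%, stage differences of single families 4.51%, and 5.34% remained.

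**Figure D2:**
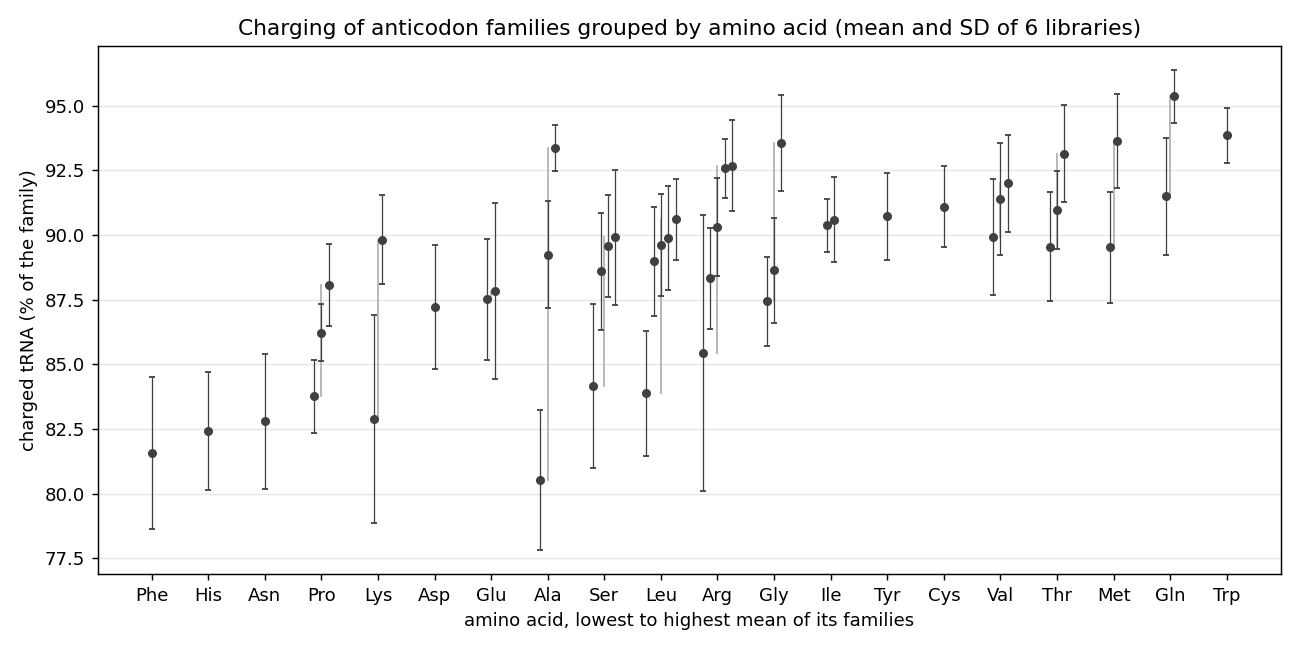
Mean charged tRNA of each family in percent (vertical axis, starting above 0) with its SD over 6 libraries, grouped by amino acid in order of the mean over its families; grey lines join the lowest and highest family of an amino acid. Alanine has the widest gap, 12.8 points between Ala-AGC and Ala-UGC, and isoleucine the narrowest, 0.22 points.

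Isoacceptors of one amino acid were charged to different extents in most cases. Differences between families were taken within each library, where a shift of the whole library cancels, and tested with limma over all 46 pairs. By this test 34 of the 46 pairs differed (73.9%), although pairs that share a family are not independent. The median gap between the least and most charged family of an amino acid was 4.28 points. The largest was Ala-UGC over Ala-AGC, 12.8 points (95% interval 11.0 to 14.6), and Ala-CGC exceeded Ala-AGC by 8.71 (7.61 to 9.81). Lys-UUU exceeded Lys-CUU by 6.92 points (5.46 to 8.38), and Leu-UAA exceeded Leu-AAG by 6.73 (5.23 to 8.24). Arg-CCG exceeded Arg-ACG by 7.22 points (3.497 to 10.9) and Arg-UCG exceeded it by 7.13 (3.16 to 11.1). All 6 gaps had the same sign in 6 of 6 libraries. The Arg-ACG gaps rested partly on sphere replicate 3, and without it they were 5.41 and 5.28 points, both still called.

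Other amino acids had smaller gaps. Gly-CCC exceeded Gly-GCC by 6.10 points, Ser-AGA exceeded Ser-GCU by 5.76, and Pro-CGG exceeded Pro-AGG by 4.28. The initiator iMet-CAU, which shares its anticodon and its synthetase with Met-CAU, exceeded it by 4.09 points (3.22 to 4.96). Gln-UUG exceeded Gln-CUG by 3.87, Thr-UGU exceeded Thr-AGU by 3.60 and Val-UAC exceeded Val-CAC by 2.07, all called. Ile-UAU minus Ile-AAU was 0.22 points (-0.84 to 1.28) and Glu-UUC minus Glu-CUC was 0.33 (-0.92 to 1.58), and neither passed.

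Grouped by the enzyme, the 24 families with class I synthetases had a median mean charging of 90.5%, with 16 called above and 4 below the library mean. The 22 class II families had a median of 88.3%, with 6 above and 11 below. The median of all 46 was 89.6%, with 22 called above and 15 below. This split depends on the centre chosen, and the class counts were made with the mean only. Families whose synthetase is in the multi-synthetase complex had a median of 89.6%, and the others 89.7%. By the first anticodon base, the median was 90.5% for the 14 families with U, 89.7% for the 16 with C, 87.5% for the 8 with A and 85.7% for the 8 with G. Where families with U and A at this place shared the other bases of the anticodon, the U family was the more charged in 7 of 8 cases, with Ser-UGA and Ser-AGA as the exception. The median difference was 3.03 points. Those of isoleucine (0.22), valine (0.60) and serine (-0.35) were small and not called as pairs. Against C the U family was the more charged in 10 of 13 cases, with a median difference of 0.97 points. The exceptions were Arg-UCG, Pro-UGG and Gly-UCC, and Gly-UCC minus Gly-CCC was -4.90 points. These counts describe the lists and were not tested.

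The stages were then compared family by family. On the values as deposited, limma called 0 of 46 families (0%), with 2 at an unadjusted p under 0.05, Lys-CUU and Arg-ACG. Bud exceeded sphere in 16 families and was lower in 30. The families of one library moved together, which this fit does not take into account, so its p-values cannot be taken at face value. On simulated libraries with shared shifts and no stage difference it made calls more often than its threshold allows, and for this reason no interval from it is given. The fit with the library mean removed did not show this on the same simulated data. There the shift was equal for all families of a library, which removing the mean cancels by design. Shifts that differ between families were not simulated. In the data, less charged families varied more between libraries (Spearman's rho of mean and SD over the families, -0.62). On the data the fit with the library mean removed called 2 of 46 families (4.35%), Lys-CUU and Arg-CCU. Both were higher at bud relative to their libraries, and 12 families had an unadjusted p under 0.05. On log-odds centred in the same way, an alternative chosen after seeing the data, 4 were called, and the additional ones, Thr-UGU and Val-AAC, were lower at bud (limma adjusted p = 0.020 and 0.036).

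Lys-CUU, a lysine family that reads AAG codons, had 82.1%, 89.7% and 85.7% in the bud libraries, against 80.3%, 79.9% and 79.7% in the sphere libraries. All 3 bud values lay above all 3 sphere values, and the sphere values were close together. The difference was 5.86 points as deposited (limma adjusted p = 0.071), and 6.09 points with the library mean removed (95% interval 3.75 to 8.43, limma adjusted p = 0.017). Without bud replicate 3 or sphere replicate 3 it was 5.67 or 5.83 points and no longer called (limma adjusted p = 0.097 and 0.093). In the abundance libraries Lys-CUU made up 2.63% and 2.84% of nuclear tRNA counts at bud, against 1.70% and 2.00% at sphere.

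Arg-CCU, which reads AGG codons, had 87.7%, 91.8% and 88.9% in bud libraries, against 86.0%, 88.3% and 87.4% in sphere libraries. These values overlapped, and they separated only after the library mean was removed. The difference was then 2.48 points (1.38 to 3.58, limma adjusted p = 0.021), and as deposited it was 2.25 points (limma adjusted p = 0.997), or 1.10 points without bud replicate 2. Leaving out bud replicate 3, sphere replicate 1, sphere replicate 2 or sphere replicate 3 ended this call (limma adjusted p = 0.13, 0.062, 0.073 and 0.12).

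Arg-ACG had 84.4%, 91.7% and 88.1% in bud libraries, against 84.0%, 88.3% and 76.2% in sphere libraries. Its difference of 5.23 points was the next largest but rested on sphere replicate 3, without which it was 1.92 points. Leu-UAG had 89.0%, 92.5% and 91.6% in bud libraries, against 88.7%, 88.2% and 87.7% in sphere libraries, a difference of 2.88 points without overlap. It was not called with the library mean removed (3.11 points, 0.85 to 5.37, limma adjusted p = 0.077). Ser-GCU had 81.5%, 89.9% and 83.6% in bud libraries, against 81.7%, 85.6% and 82.7% in sphere libraries, a difference of 1.65 points. It turned to -0.79 points without bud replicate 2.

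Among the families with lower values at bud, the 5 largest differences as deposited were those of Glu-UUC (-2.85 points), Val-AAC (-2.65), Ser-AGA (-2.36), Thr-UGU (-2.18) and Val-CAC (-2.06), and none passed. These sizes depended on single libraries, and without bud replicate 2 all 5 were larger, from -3.37 for Val-CAC to -5.04 for Glu-UUC. The smallest values were -1.03 for Glu-UUC and -1.08 for Ser-AGA without bud replicate 1, -1.38 for Thr-UGU without bud replicate 3, and -1.10 for Val-CAC and -1.87 for Val-AAC without sphere replicate 2. Glu-UUC had 82.8%, 90.8% and 85.7% in bud libraries, against 86.5%, 91.5% and 89.8% in sphere libraries. Val-AAC had 89.1%, 92.2% and 88.9% in bud libraries, against 90.8%, 94.3% and 93.0% in sphere libraries. Ser-AGA had 86.2%, 92.7% and 87.4% in bud libraries, against 90.1%, 92.0% and 91.2% in sphere libraries. Bud replicate 2 fell within or above the sphere range in each of them, so the stages overlapped. With the library mean removed, limma gave adjusted p values between 0.062 and 0.15 for these 5. As deposited, the bud libraries lay wholly above the sphere libraries in 2 families (4.35%), Lys-CUU and Leu-UAG, and wholly below in 0 (0%). With the library mean removed they lay above in 4 (8.7%) and below in 9 (19.6%). The remaining families overlapped, and with the library mean removed the 95% intervals of 43 of 46 differences lay within 5 points on either side of 0. These differences are relative to the library mean, so a change shared by all families is not part of them.

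**Figure D3:**
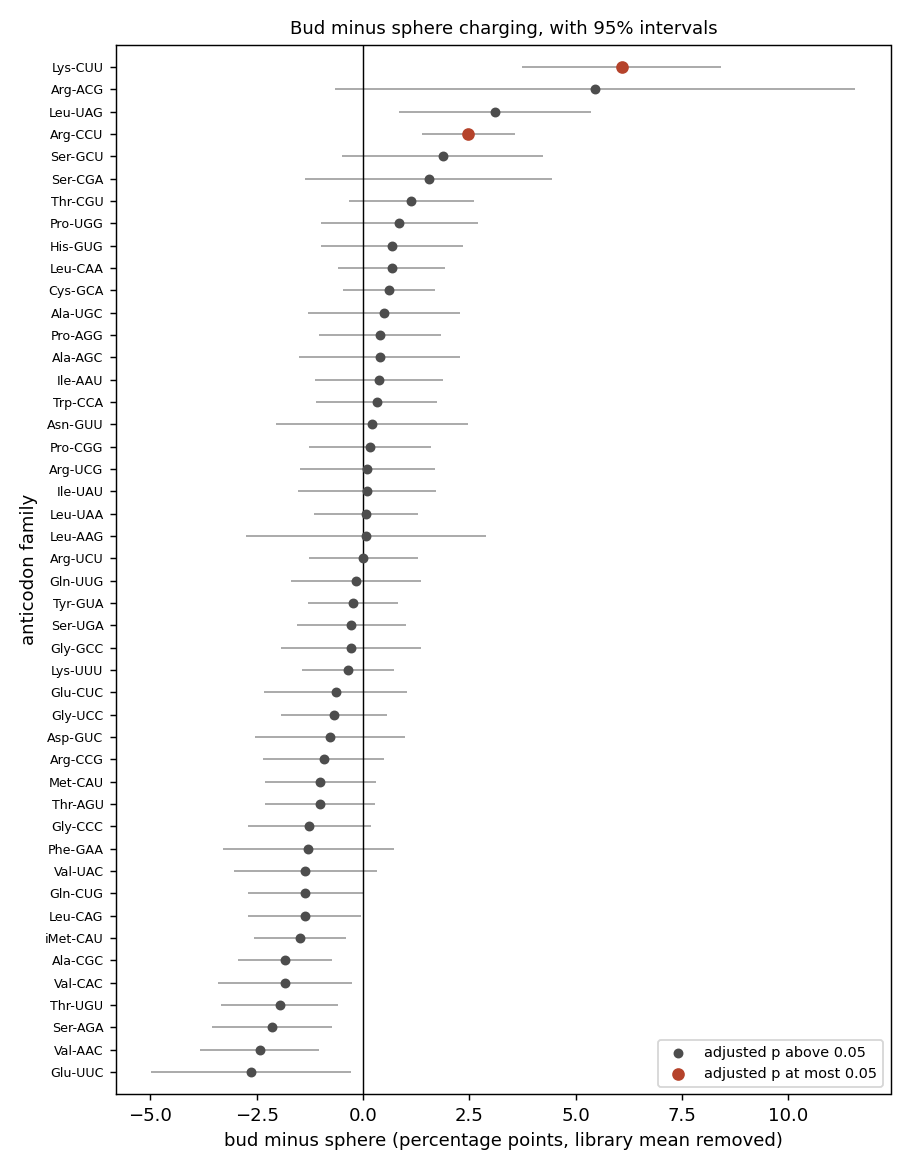
Bud minus sphere charging of each family in percentage points with the library mean removed (horizontal axis) and its 95% interval from limma; red points passed at an adjusted p of at most 0.05. Lys-CUU (6.09 points) and Arg-CCU (2.48) are red, and the interval of Arg-ACG crosses 0.

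The gap between isoacceptors was also compared between the stages, in points within each library, so shifts that differ between families remain in it. By limma 5 of 46 pairs differed (10.9%), 15 at an unadjusted p under 0.05, and all 5 gaps were smaller at bud. On the log-odds scale 14 pairs were called, these 5 among them. The signed difference (the family with the higher mean minus the other) was lower at bud in 9 and higher in 5. The higher ones were Ala-UGC minus Ala-CGC, Leu-UAG minus Leu-AAG, Leu-UAG minus Leu-CAG, Leu-CAA minus Leu-CAG and Thr-CGU minus Thr-AGU. Of these, Leu-UAG minus Leu-CAG changed sign, from -1.60 points at sphere to 2.88 at bud. Leu-CAA minus Leu-CAG also did, from -0.11 to 1.93. Lys-UUU exceeded Lys-CUU by 5.79, 2.53 and 2.79 points in bud libraries, against 8.32, 11.0 and 11.0 points in sphere libraries. The change in this gap was -6.43 points (-9.35 to -3.51, limma adjusted p = 0.024). Lys-UUU itself differed by -0.57 points between the stages as deposited, so this change mostly repeats the difference of Lys-CUU. Ser-AGA exceeded Ser-GCU by 4.69, 2.79 and 3.79 points in bud libraries, against 8.36, 6.41 and 8.52 points in sphere libraries, a change of -4.00 (limma adjusted p = 0.033). Bud and sphere values did not overlap in either pair.

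Arg-CCU took part in 2 of the other called pairs. Arg-CCG exceeded it by 2.90, 2.33 and 2.70 points in bud libraries, against 5.17, 6.45 and 6.52 points in sphere libraries (change -3.40, limma adjusted p = 0.024). Arg-UCU exceeded it by 0.20, 1.04 and 1.01 points in bud libraries, against 2.61, 3.72 and 3.33 points in sphere libraries (change -2.47, limma adjusted p = 0.048). Thr-UGU exceeded Thr-CGU by 0.83, 0.50 and 0.57 points in bud libraries, against 3.26, 4.25 and 3.66 points in sphere libraries (change -3.09, limma adjusted p = 0.024). Without bud replicate 2, bud replicate 3, sphere replicate 2 or sphere replicate 3, 0 pairs were called, although the 5 changes kept their sign. Ser-AGA minus Ser-GCU and Arg-UCU minus Arg-CCU lost their call in 5 of the 6 fits that left out a library, and the others in 4. Over all 46 pairs, 20 did not overlap between stages (43.5%), 7 with the higher values at bud and 13 with the lower. The gap between Ala-UGC and Ala-AGC was 12.9 points at bud and 12.8 at sphere, a change of 0.10 (-3.46 to 3.66).

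**Figure D4:**
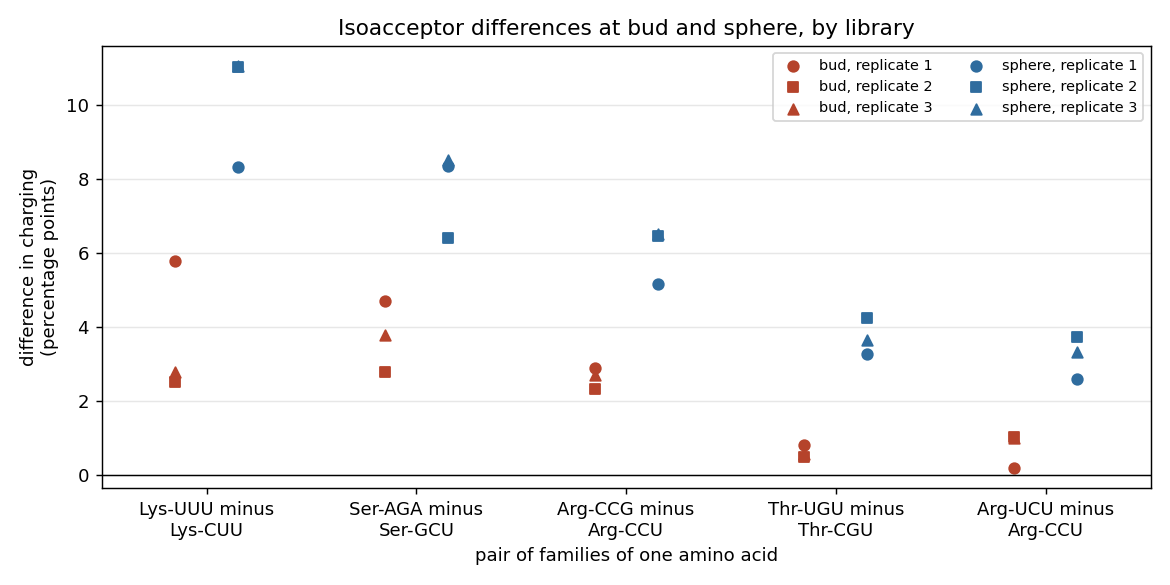
Difference in charging between isoacceptors in percentage points (vertical axis) in each bud library (red) and sphere library (blue), for the 5 pairs whose gap differed between the stages. In each pair the 3 bud values lie below the 3 sphere values, from 2.53 to 5.79 against 8.32 to 11.0 for the lysine pair.

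Abundance was measured in other libraries of the same stages, 2 at bud and 2 at sphere. Across the 46 families Spearman's rho between a family's share of nuclear tRNA counts and its charging was -0.29 at bud and -0.16 at sphere. The change in charging and the log2 change in share had a rho of 0.04. These are descriptions over families, which share libraries.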

How the data were processed

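Charged fractions (0 to 1) were made and deposited by the authors from reads of 3 bud and 3 sphere libraries, 1 value per anticodon family and library, without read counts. Per the labels, reads were trimmed with cutadapt 3.5 and the build was GRCz11. The deposited abundance table held the authors' read counts, used here only as shares of nuclear tRNA counts. Fractions were multiplied to percent. Families, isoacceptor gaps and stages were compared with limma 3.58.1 in R 4.3.3 (stage as the factor, Benjamini-Hochberg over all families or pairs, calls at an adjusted p of at most 0.05), used in place of the study's per-family test because of the number of libraries. Single values had exact permutation tests. For the values as deposited, limma estimated 1 shared variance for all families. The family fits of bud against sphere were tested on simulated data, and they recovered simulated differences of 6 points. Recovery of smaller ones, such as that of Arg-CCU, was not checked. For the fit on values as deposited this was checked without library shifts, and for the fit with the library mean removed with them. The simulated differences went up and down equally often, so removing the mean could not distort them. The fit on values as deposited made too many calls when whole libraries shifted, while the fit with the library mean removed did not. Recovery was not tested for changes of isoacceptor gaps between the stages, or for the fit against the library mean. The simulated shift was equal for all families of a library, so shifts that differ between families were not tested. Alternatives were log-odds, library centring, robust variances, a variance trend, a replicate block and leaving out each library. Centring on the mean log-odds, and leaving out libraries with the mean removed, were added after seeing the data. Members, lists and tests were chosen with earlier results of these data known. Families named in full were the 6 lowest and 6 highest, those called, the 5 largest stage differences each way, the 3 widest and 3 narrowest ranges and the 6 largest called gaps. tRNA sequences were not analysed here.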

Additional observations from a re-analysis of the deposited data

Results flagged for a closer look

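For 5 pairs of isoacceptors the gap in charging differed between bud and sphere by limma's test of the difference. The changes, bud minus sphere, were -6.43 points for Lys-UUU minus Lys-CUU, -4.00 for Ser-AGA minus Ser-GCU, -3.40 for Arg-CCG minus Arg-CCU, -3.09 for Thr-UGU minus Thr-CGU and -2.47 for Arg-UCU minus Arg-CCU. Both arginine pairs hold Arg-CCU, so they are not independent. Lys-CUU and Arg-CCU were also the 2 families called with the library mean removed, so these 3 gaps are not separate from those calls. The calls ended without bud replicate 2, bud replicate 3, sphere replicate 2 or sphere replicate 3, when 0 of 46 pairs passed. Ser-AGA minus Ser-GCU and Arg-UCU minus Arg-CCU lost their call in 5 of the 6 fits that left out a library.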

How the results depend on the processing

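The count of families called between bud and sphere was 0 as deposited and stayed 0 on log-odds, with robust variances, with a variance trend and by exact tests per family, which cannot pass with 3 libraries a stage. It was 2 with libraries centred on their mean or median and 4 with centring on the mean log-odds, 2 higher and 2 lower at bud. In the fit on values as deposited it ranged from 0 to 2 without single libraries. Those calls were Lys-CUU and Arg-ACG without bud replicate 1, Glu-UUC without bud replicate 2 and Arg-ACG without sphere replicate 2. That fit made too many calls on simulated data with library shifts. With the mean removed the count ranged from 0 to 4 without single libraries. The difference in mean charging ranged from -1.62 to 0.70 points without single libraries and turned positive without bud replicate 1 (0.70), bud replicate 3 (0.25) or sphere replicate 2 (0.29). Ser-GCU ranged from -0.79 to 3.39 points. Families called against their library mean numbered 34 to 35 without single libraries, isoacceptor pairs 32 to 35, and the mean rho of the order was 0.87 to 0.90. Pairs whose gap differed between stages numbered 14 on log-odds (signed difference lower at bud in 9 and higher in 5) and 0 to 6 without single libraries.

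Whether replicate numbers pair the samples is not known. Deviations of same-numbered bud and sphere libraries correlated across families at -0.16, 0.32 and -0.36. These correlations leave out shifts of whole libraries. Mean charging was lowest in replicate 1 and highest in replicate 2 at both stages (87.0% and 91.6% at bud, 87.8% and 90.1% at sphere). With a replicate block, 2 families were called as deposited (Lys-CUU and Arg-ACG), 4 with the library mean removed (Lys-CUU, Arg-CCU and Leu-UAG higher at bud, Glu-UUC lower), and 0 isoacceptor gaps, so none of the 5 calls. The block left the difference in mean charging at -0.22 points (exact sign-flip permutation, p = 1). That test cannot reach 0.05 with 3 pairs of libraries. With 3 libraries a stage and no read counts, a missed threshold does not show equal charging, and counting error cannot be told apart from differences between embryo pools.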
